A study of Mus musculus with 23 samples.

Results

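The 40 genes described here carry glucose and lactate across membranes, run glycolysis, interconvert pyruvate and lactate, pass pyruvate into the mitochondrion, store and release glycogen, or open the pentose phosphate pathway. They were named one by one and found in the count table by Ensembl identifier, and all 40 were among its 45706 genes. Expression was measured by RNA sequencing of hippocampal tissue in female mice, with 12 libraries of the Ins2+/+ genotype (wild type, WT) and 11 of the Ins2-/- genotype (knockout, KO). The series title places the work in a study of insulin made in the brain, learning and memory in female mice, and Ins2 encodes an insulin. Both genotypes shared sex and tissue, and no treatment was labelled. Age, strain, and how the Ins2 allele was made or where it is lost are not given in the sources used here. The labels do not say that each library came from a separate animal, so p-values measure the spread between these libraries.

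The brain burns glucose as its main fuel. Transporters of the Slc2a family bring glucose into endothelial, glial and neuronal cells, hexokinase traps it, and glycolysis splits it into pyruvate. Pyruvate either enters the mitochondrion or becomes lactate, which monocarboxylate transporters of the Slc16a family move between cells, and astrocytes hold most of the brain's glycogen. Many of these steps are run by isoforms from different genes, whose use differs between neurons and glia.

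The libraries held 13792274 to 22953261 counts each. Ins2 had 0 counts in KO, a limit of 0.0156 CPM (counts scaled to a common library total) when all 11 libraries are pooled, and 26 counts in 7 of the 12 WT libraries, 18 of them in WT 17. KO 8 stood apart: its 11 summed hypothalamic marker genes reached 1576 CPM against 1.64 to 9.20 CPM in the other 22 libraries, and its 7 summed dentate gyrus markers were at 82.9 CPM against 268 to 602 CPM. In WT 14, WT 17, KO 2, KO 6 and KO 12 the 10 summed markers of choroid plexus, the tissue that makes cerebrospinal fluid, were at 3248 to 20750 CPM against 32.7 to 106 CPM in the remaining 17 without KO 8. Dentate gyrus and CA pyramidal markers were present in every library, the latter at 104 to 645 CPM in sum, and each marker named in these lists had counts.

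No gene of the set passed the threshold for a genotype difference. Of the 40 genes, all of which passed the filter on low counts, 0 had an adjusted p below 0.05 (edgeR's quasi-likelihood test, Benjamini-Hochberg adjustment over all 15828 tested genes), where 0.0126% of all tested genes did. At an unadjusted p below 0.05 there was 1 gene, Pfkfb3, against 5.74% of all tested genes. DESeq2 and limma voom with sample quality weights also called 0 of the 40, with 1 and 9 genes at an unadjusted p below 0.05. The share under voom, 22.5%, stood beside 17.4% of all tested genes. The smallest adjusted p of any of the 40 was 0.781, and 0.155 under voom. The fitted log2 fold changes, KO over WT, ran from -0.26 for Slc16a7 to 0.63 for Slc2a4, with a median of 0.01 against 0.003 over all tested genes. Of the 40 genes, 31 (77.5%) differed by less than 0.1 on the log2 scale, as did 62.7% of all tested genes. For 25 of the 40 the 95% interval lay within 0.25 on either side of 0, as it did for 7497 of all 15828 tested genes and for 1441 of the 2125 tested genes at or above the set's median CPM. In 0 of the 40 did the ranges of the genotypes separate, and 0.0126% of tested genes had separate ranges.

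**Figure D1:**
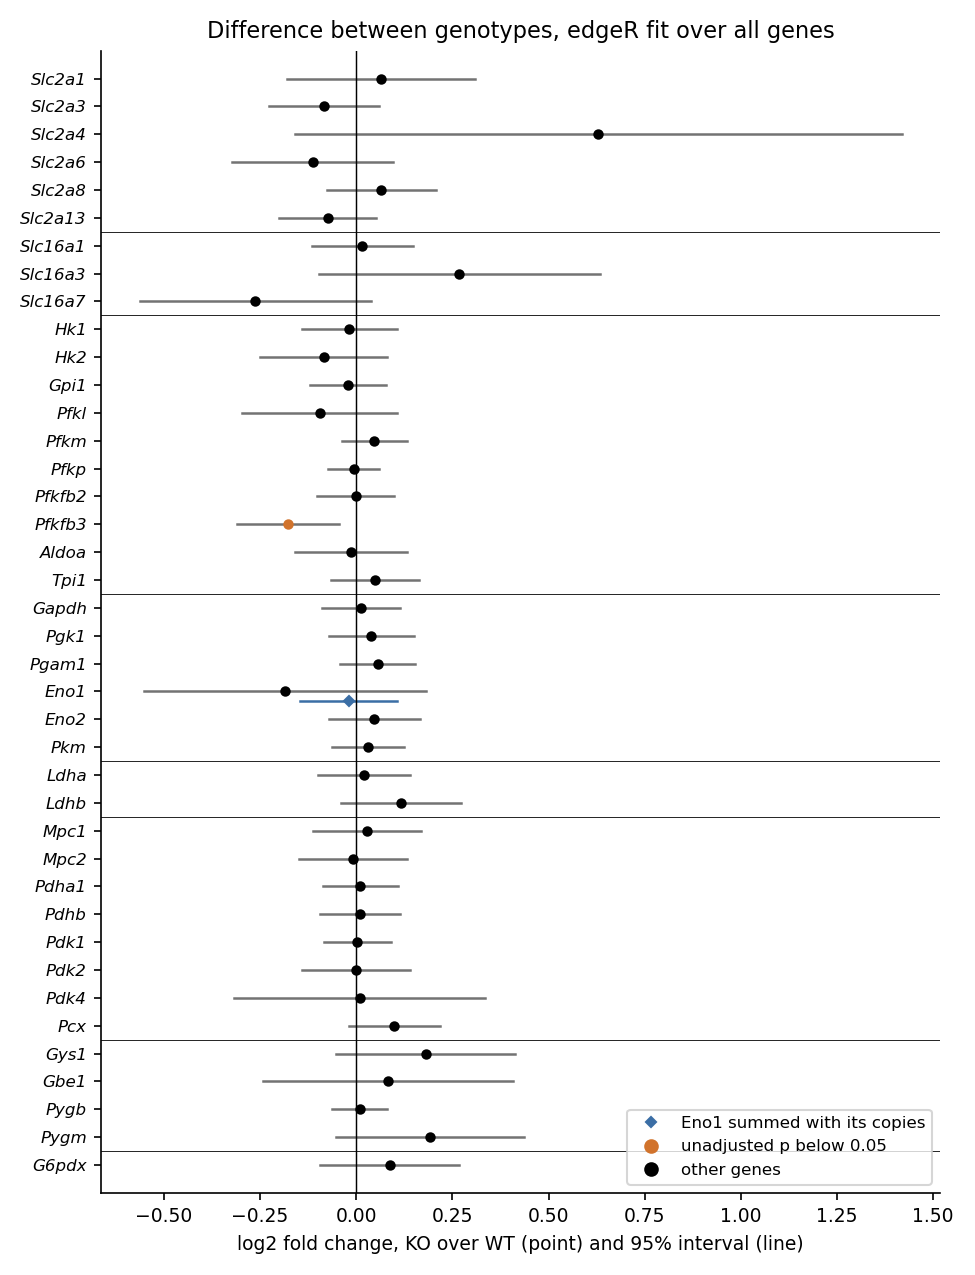
Fitted log2 fold change (KO over WT, x axis) of each of the 40 genes (y axis, grouped by role), with its 95% interval; 12 WT and 11 KO libraries. Pfkfb3 is the gene whose interval leaves out 0, Slc2a4 has the widest interval, and the blue diamond shows Eno1 after its near-identical copies were added to it.

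The genes differed far more from each other in level than between genotypes. Levels per length are given as RPKM, here TMM-scaled CPM per kilobase of a gene's merged exons, as mean ± SD over the 23 libraries. Aldoa, the aldolase that splits fructose bisphosphate, was highest at 541 ± 56.6 RPKM (SD, n = 23). Pkm, the pyruvate kinase that ends glycolysis, followed at 249 ± 15.5 RPKM (SD, n = 23). Slc16a3 was lowest at 0.313 ± 0.0934 RPKM and Slc2a4 stood beside it at 0.326 ± 0.26 RPKM (SD, n = 23 each), values that did not differ beyond their spread. Slc2a4 was the lower with the length of the principal annotated transcript in place of merged exons, at 0.449 against 0.698 RPKM, as it was with merged exons without the 6 libraries that stood apart, at 0.219 against 0.305 RPKM. The SD of log2 CPM within genotype had a median of 0.158 over the 40 genes, against 0.211 over all tested genes and 0.157 over the tested genes at or above the set's median CPM. It was smallest for Pfkp at 0.0627 and largest for Slc2a4 at 0.869.

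**Figure D2:**
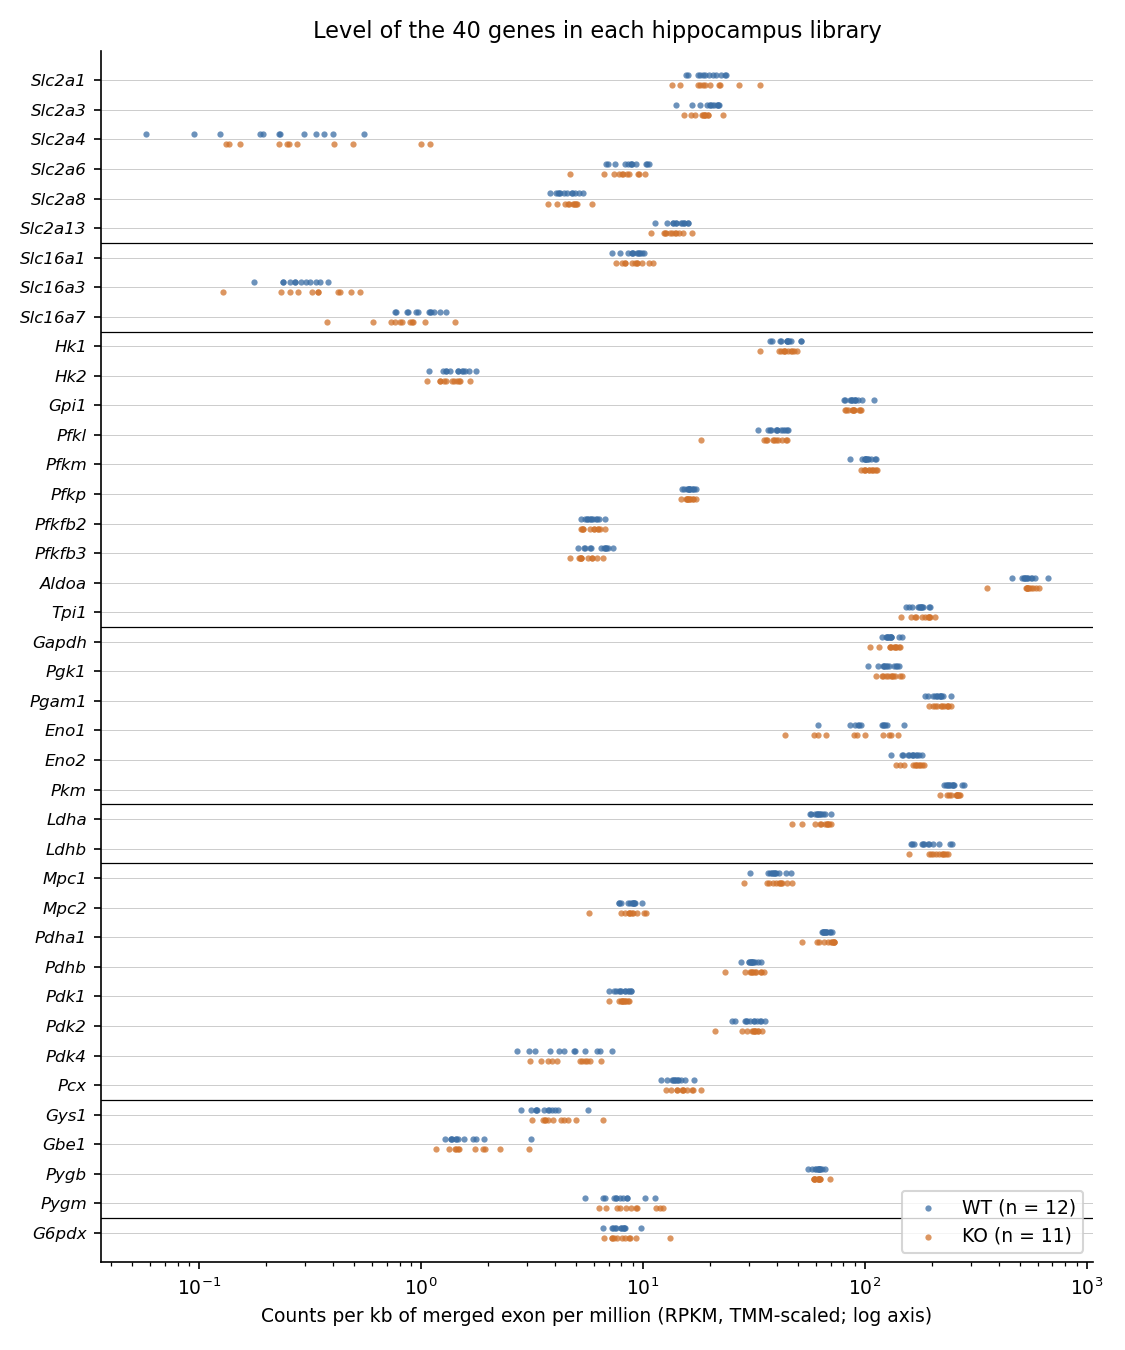
RPKM (x axis, log scale) of each of the 40 genes (y axis, grouped by role) in each library; blue points are the 12 WT and orange points the 11 KO libraries. Aldoa lies highest and Slc16a3 and Slc2a4 lowest, and for each gene the points of the genotypes overlap.

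Slc2a1 and Slc2a3 led the 6 Slc2a genes of the set. Slc2a1, the transporter of the blood-brain barrier and of glia (GLUT1), was at 20.1 ± 4.31 RPKM, and Slc2a3, the main glucose transporter of neurons (GLUT3), at 19.2 ± 2.21 RPKM (SD, n = 23 each). Their order was not settled: Slc2a1 was the higher in 13 of 23 libraries, and with principal transcript lengths Slc2a3 led in 22 of 23, at 35.1 against 21.6 RPKM. Slc2a13, which carries myo-inositol rather than glucose, came next at 13.98 ± 1.44 RPKM (SD, n = 23), below Slc2a3 in 23 of 23 libraries. Its order with Slc2a1 varied: with principal transcript lengths it was below Slc2a1 in 18 of 23 libraries, and with merged exons in 15 of the 17 that did not stand apart. The intracellular transporters Slc2a6 and Slc2a8 were at 8.45 ± 1.41 and 4.63 ± 0.519 RPKM (SD, n = 23 each). Slc2a4, the transporter that insulin brings to the surface of muscle and fat cells (GLUT4), supplied 0.487% of the summed RPKM of these 6 genes. Other Slc2a genes outside the 40, among them Slc2a12 at 3.42 ± 5.82 RPKM and Slc2a5 at 0.995 ± 0.51 RPKM (SD, n = 23 each), were not part of that sum.

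Slc2a1 (chromosome 4, 119108711 to 119137983, plus strand, GRCm38) had a lowest, median and highest level of 54.6, 68.0 and 83.2 CPM in WT and 47.5, 66.5 and 118 CPM in KO. Its highest library was KO 12 and its lowest KO 22, so the KO range enclosed the WT range. The log2 fold change was 0.06 (SE 0.119), and it turned to -0.10 without the 5 libraries rich in choroid plexus markers. Those 5 libraries had 75.02 to 118 CPM of Slc2a1 and the other 17, KO 8 left out, 47.5 to 82.0 CPM. Slc2a3 had 102, 147 and 159 CPM in WT and 111, 136 and 166 CPM in KO. The genotypes overlapped, and the log2 fold change was -0.08 (SE 0.0689).

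Slc2a4 (chromosome 11, 69942539 to 69948188, minus strand) carried the largest fold change of the set on very few counts, 19.5 per library on average and 3 to 64 in single libraries. Its lowest, median and highest levels were 0.201, 0.80 and 1.93 CPM in WT and 0.457, 0.879 and 3.80 CPM in KO. KO 12 and KO 8, at 3.80 and 3.48 CPM, lay above every WT library, and the other 9 KO libraries lay within the WT range. The fitted value of 0.63 (SE 0.382, unadjusted p = 0.113, adjusted p = 0.781, edgeR) was 0.40 without KO 8, 0.35 without KO 12, and 0.07 without KO 8 and the 5 libraries rich in choroid plexus markers. The part of those libraries' tissue makeup in the difference was not tested beyond leaving them out.

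Among the monocarboxylate transporters, Slc16a1 (MCT1, found on endothelium and glia) was at 9.12 ± 0.95 RPKM, 10.1 times Slc16a7 in the median library and above it in 23 of 23. Slc16a7 (MCT2, the high-affinity transporter of neurons) was at 0.932 ± 0.232 RPKM and Slc16a3 (MCT4, an exporter of astrocytes) at 0.313 ± 0.0934 RPKM (SD, n = 23 each). The size of these steps depends on length: Slc16a7 has 11839 bp of merged exons but a principal transcript of 2490 bp, and with the latter Slc16a1 exceeded it 2.12 times. Slc16a1 had lowest, median and highest levels of 32.2, 40.8 and 44.8 CPM in WT and 33.5, 40.9 and 49.3 CPM in KO, with a log2 fold change of 0.02 (SE 0.0637).

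Slc16a7 (chromosome 10, 125219270 to 125389465, minus strand) had 9.01, 12.2 and 15.4 CPM in WT and 4.44, 9.69 and 16.9 CPM in KO. It was below the WT median in 9 of 11 KO libraries, but the extremes of both kinds were KO libraries, KO 8 the lowest and KO 22 the highest. Its log2 fold change was -0.26 (SE 0.146, unadjusted p = 0.0849, adjusted p = 0.781, edgeR), -0.18 without KO 8 and -0.36 without KO 22. Slc16a3 ran the other way in the same libraries. It had 0.94, 1.49 and 2.02 CPM in WT and 0.682, 1.82 and 2.82 CPM in KO, with KO 22 lowest and KO 8 highest. Its log2 fold change was 0.27 (SE 0.177, adjusted p = 0.781, edgeR), on 29.1 counts per library on average.

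Hexokinase, which phosphorylates glucose on entry, was almost all Hk1. Hk1 was at 44.1 ± 4.19 RPKM and held 94.6% ± 0.657 of the summed RPKM of Hk1, Hk2, Hk3 and Hkdc1 (SD, n = 23). Hk2, the inducible isoform, was at 1.40 ± 0.18 RPKM (SD, n = 23), 31.6 times below Hk1 in the median library, or 66.4 times with principal transcript lengths. Gpi1, which turns glucose 6-phosphate into fructose 6-phosphate, was at 89.3 ± 6.46 RPKM (SD, n = 23). Hk1 had lowest, median and highest levels of 320, 378 and 441 CPM in WT and 288, 372 and 420 CPM in KO, and its 95% interval for the log2 fold change ran from -0.14 to 0.11. For Hk2 the interval ran from -0.25 to 0.08, and for Gpi1 from -0.12 to 0.08.

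Phosphofructokinase, the committed step of glycolysis, was led by the muscle-type subunit. Pfkm held 65.3% of the summed RPKM of the 3 subunit genes, the liver-type Pfkl 24.5% ± 2.76 and the platelet-type Pfkp 10.2% ± 0.753 (SD, n = 23), and Pfkm was above Pfkl in 23 of 23 libraries. With principal transcript lengths the same order held at 50.2%, 28.4% and 21.4%. Pfkl had lowest, median and highest levels of 220, 268 and 299 CPM in WT and 122, 259 and 298 CPM in KO. The low value was KO 8, and the other 10 KO libraries overlapped the WT libraries. The log2 fold changes were -0.10 (SE 0.0975) for Pfkl, or -0.02 without KO 8, and 0.05 (SE 0.0411) for Pfkm.

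Pfkfb3 and Pfkfb2 make and remove fructose 2,6-bisphosphate, the activator of phosphofructokinase, and Pfkfb3 is the isoform with the strongest kinase activity. Pfkfb3 (chromosome 2, 11471433 to 11554077, minus strand) was the gene of the set with the smallest p. Its lowest, median and highest levels were 38.5, 49.5 and 55.2 CPM in WT and 35.5, 39.9 and 50.0 CPM in KO. Of the 11 KO libraries, 10 lay below the WT median and 1, KO 12, below every WT library, while 6 of 12 WT libraries lay above every KO library. The means were 47.4 ± 5.44 CPM (SD, n = 12) and 42.0 ± 4.16 CPM (SD, n = 11). The log2 fold change was -0.18 (SE 0.0641, 95% interval -0.31 to -0.04, unadjusted p = 0.0109), and it did not pass the adjustment over all genes (adjusted p = 0.781, edgeR's quasi-likelihood test). It ran from -0.20 to -0.16 when each library was left out in turn and was -0.21 without the 6 libraries that stood apart. Lower values at an unadjusted p below 0.05 were found in 2.34% of all tested genes. Pfkfb2 was at 5.89 ± 0.451 RPKM against 5.93 ± 0.73 RPKM for Pfkfb3 (SD, n = 23 each), and its 95% interval ran from -0.10 to 0.10.

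Aldoa had lowest, median and highest levels of 1340, 1558 and 1938 CPM in WT and 1035, 1584 and 1779 CPM in KO. WT 1 was its highest and KO 8 its lowest library, and the 95% interval of the log2 fold change ran from -0.16 to 0.13. Tpi1, the triose phosphate isomerase, was at 179 ± 15.7 RPKM (SD, n = 23) with an interval from -0.07 to 0.16. Pfkp, the steadiest gene of the set, had 200, 217 and 233 CPM in WT and 198, 213 and 232 CPM in KO. Its genotypes overlapped almost completely, and its interval ran from -0.07 to 0.06.

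The later glycolytic genes were abundant, and the ranges of the genotypes overlapped for each. Per length, Pgam1, the phosphoglycerate mutase, was at 217 ± 15.9 RPKM, Gapdh at 131 ± 9.48 RPKM and Pgk1, the first enzyme of the pathway to yield ATP, at 128 ± 10.8 RPKM (SD, n = 23 each). Gapdh was above Pgam1 with principal transcript lengths, at 402 against 243 RPKM. The log2 fold changes were 0.06 (SE 0.0472) for Pgam1, 0.01 (SE 0.0492) for Gapdh, 0.04 (SE 0.0534) for Pgk1, 0.05 (SE 0.0573) for Eno2 and 0.03 (SE 0.0453) for Pkm. Pkm had lowest, median and highest levels of 1141, 1216 and 1395 CPM in WT and 1091, 1299 and 1348 CPM in KO, KO 8 being the lowest library. Eno2, the neuronal enolase, was at 163 ± 14.3 RPKM (SD, n = 23) and above Eno1, the ubiquitous enolase, in 22 of 23 libraries. With principal transcript lengths that was so in 12 of 23, at 275 against 267 RPKM, so the order of Eno1 and Eno2 was not settled. Both settings leave out counts assigned to the near-identical copies of Eno1 described below. Its mean over the 23 libraries was 541 CPM alone and 726 CPM with those copies.

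Some of these genes have near-identical copies, so their own rows are uncertain. The intronless copy Pgk1-rs7 is 100% identical to Pgk1 over 1255 bp and held 34.5% as many counts as Pgk1; its 4 similar genes together held 43.3%. Gapdh had 78 similar genes that together held 10.4% as many counts. For Eno1 (chromosome 4, 150236721 to 150248879, plus strand), 3 copies held 33.5% as many counts as Eno1 itself. Its copy Eno1b is 99.5% identical to it over 1736 bp. The copy Gm4735 differs from the 1302 bp coding sequence of Eno1 at 5 positions, an identity of 99.6%. A stretch of 120 bases is shown to make clear how little a read has to tell them apart, with the 2 differing bases in capitals; it covers coding positions 697 to 816 of Eno1, counted from 1 at the first base of the start codon, and chr2:80837837-80837956 (plus strand, GRCm38, GENCODE M21) for Gm4735.
Eno1: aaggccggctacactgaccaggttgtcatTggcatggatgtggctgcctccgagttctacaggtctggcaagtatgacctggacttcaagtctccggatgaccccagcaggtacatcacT
Gm4735: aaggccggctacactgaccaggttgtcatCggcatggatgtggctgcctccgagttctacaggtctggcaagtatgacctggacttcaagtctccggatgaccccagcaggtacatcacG

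Counts assigned to Eno1b came in steps. In 10 libraries (6 WT and 4 KO) Eno1b was at 2.38 to 6.89 CPM and Eno1 at 645 to 808 CPM. In 9 libraries (5 WT and 4 KO) Eno1b was at 122 to 180 CPM and Eno1 at 234 to 538 CPM, the lowest being KO 8. In 4 libraries (WT 14, KO 9, KO 13 and KO 21) Eno1b was at 247 to 287 CPM and Eno1 at 317 to 361 CPM. Where Eno1b was high Eno1 was low, and their sum with the other copies varied far less: its coefficient of variation was 8.85%, against 28.7% for Eno1 alone. Eno1 by itself had lowest, median and highest levels of 330, 581 and 808 CPM in WT and 234, 494 and 754 CPM in KO, with a log2 fold change of -0.19 (SE 0.177, adjusted p = 0.81, edgeR). That value was -0.10 without KO 8. It was -0.46 without the 5 libraries rich in choroid plexus markers (unadjusted p = 0.0209, adjusted p = 0.538, edgeR) and -0.36 without those and KO 8 (unadjusted p = 0.0381, adjusted p = 0.614, edgeR). Summed with its copies it had 685, 728 and 862 CPM in WT and 515, 720 and 806 CPM in KO, and the log2 fold change was -0.02 (SE 0.061), fitted over all 23 libraries only. Over all 23 libraries those with high Eno1b and low Eno1 were found in both genotypes, and the cause was not tested. WT 14 is among the 5 libraries rich in choroid plexus markers. Without those 5 the highest Eno1b step held KO 9, KO 13 and KO 21 and no WT library. KO 6 and KO 12, also left out there, were in the lowest Eno1b step. For the other 10 genes with copies, summing moved no fold change by as much as its SE.

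**Figure D3:**
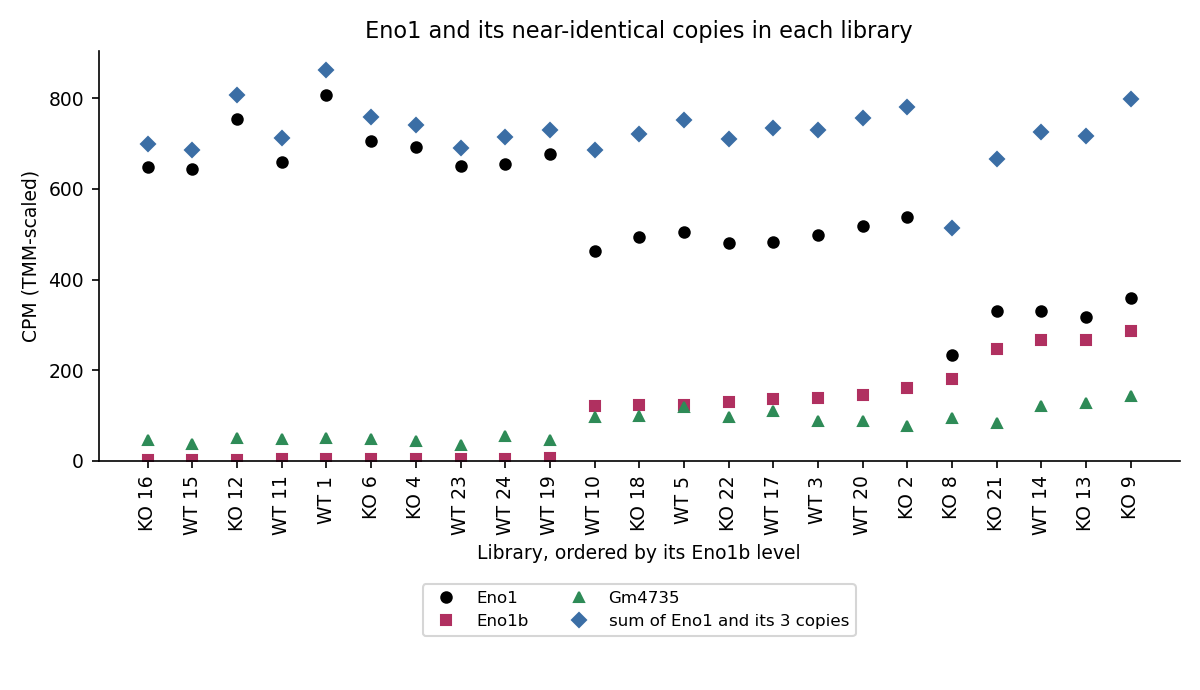
CPM (y axis) of Eno1, Eno1b and Gm4735 and of Eno1 summed with its 3 copies in each of the 23 libraries (x axis, ordered by Eno1b). Eno1b rises in steps from under 10 CPM to 122 CPM and above while Eno1 falls, and the sum stays between 667 and 862 CPM in all libraries but KO 8, at 515 CPM.

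Lactate dehydrogenase converts pyruvate to lactate and back, with the Ldha subunit favouring lactate formation and Ldhb its use. Ldhb led at 202 ± 26.4 RPKM against 62.6 ± 5.72 RPKM for Ldha (SD, n = 23 each), 3.21 times higher in the median library and higher in 23 of 23. With principal transcript lengths the factor was 1.96, again in 23 of 23. Ldhb had lowest, median and highest levels of 253, 296 and 389 CPM in WT and 249, 338 and 371 CPM in KO. It was above the WT median in 10 of 11 KO libraries, while 2 WT libraries, WT 15 the highest, lay above every KO library and the lowest library was KO 22. Between genotypes the log2 fold change was 0.12 (SE 0.0755, adjusted p = 0.781, edgeR). It ran from 0.09 to 0.19 over the 11 alternatives that changed the fit or the libraries. Ldhb had an unadjusted p below 0.05 under voom and, in edgeR, without WT 15, WT 17 or KO 22, and was called in none of these. In those fits 7.60% to 17.4% of all tested genes had such a p. Ldha had 187, 204 and 234 CPM in WT and 156, 219 and 233 CPM in KO, and a log2 fold change of 0.02 (SE 0.0582).

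Of the genes that take pyruvate into mitochondrial metabolism, Pdha1 and Pdhb, the subunits of the pyruvate dehydrogenase core enzyme, were at 67.0 ± 4.73 and 31.1 ± 2.42 RPKM (SD, n = 23 each). The mitochondrial pyruvate carrier works as a pair of its subunits, and Mpc1 at 39.5 ± 4.34 RPKM exceeded Mpc2 at 8.73 ± 0.931 RPKM (SD, n = 23 each) by 4.63 times in the median library. With principal transcript lengths the factor was 1.43. Pdk2 led the kinases that switch pyruvate dehydrogenase off, at 30.6 ± 3.28 RPKM, over Pdk1 at 8.10 ± 0.513 RPKM and Pdk4 at 4.72 ± 1.25 RPKM (SD, n = 23 each). Pdk3, a kinase outside the 40 genes, held 18.7% ± 1.72 of the summed RPKM of the 4 kinases (SD, n = 23) and was above Pdk1 in 22 of 23 libraries, but with principal transcript lengths Pdk1 was above it in 11 of 23. Pdk4 had the widest spread among Pdk1, Pdk2 and Pdk4, 9.50, 16.3 and 25.3 CPM in WT and 10.9, 18.2 and 22.8 CPM in KO. Its genotypes overlapped throughout, and its 95% interval ran from -0.32 to 0.33.

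Pcx, pyruvate carboxylase, which replenishes the citric acid cycle and in brain is an enzyme of astrocytes, was at 14.7 ± 1.49 RPKM (SD, n = 23). Pcx (chromosome 19, 4510472 to 4621752, plus strand) had lowest, median and highest levels of 57.4, 66.7 and 81.1 CPM in WT and 60.0, 71.9 and 86.3 CPM in KO. It was above the WT median in 9 of 11 KO libraries, and KO 8 alone exceeded every WT library. Between genotypes the log2 fold change was 0.10 (SE 0.0576, unadjusted p = 0.0971, adjusted p = 0.781, edgeR), and 0.05 without KO 8 and the 5 libraries rich in choroid plexus markers. For the 7 other genes of pyruvate entry the fold changes over all 23 libraries lay within 0.03 of 0 on the log2 scale. Without KO 8 and those 5 libraries they were 0.13 for Mpc1 and 0.10 for Pdha1, both at an unadjusted p below 0.05 and neither called (edgeR), and 0.20 for Pdk4. In that fit 8.05% of all tested genes had an unadjusted p below 0.05.

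The 4 glycogen genes of the set were led by Pygb, the brain glycogen phosphorylase, at 61.5 ± 2.86 RPKM and 86.9% ± 2.63 of the summed phosphorylase level (SD, n = 23). Pygm, the muscle isoform that astrocytes also use, followed at 8.53 ± 1.86 RPKM, Gys1, the glycogen synthase, at 3.96 ± 0.86 RPKM and Gbe1, the branching enzyme, at 1.70 ± 0.511 RPKM (SD, n = 23 each). Pygb was steady, at 266, 297 and 316 CPM in WT and 283, 296 and 336 CPM in KO, with a 95% interval from -0.06 to 0.08. Pygm (chromosome 19, 6384399 to 6398459, plus strand) had 17.7, 24.95 and 36.3 CPM in WT and 20.4, 28.5 and 39.7 CPM in KO. The genotypes overlapped, with 3 KO libraries above every WT library. All 3 were among the 6 libraries that stood apart, and Pygm reached 30.3 CPM at most in the other 17. KO exceeded WT by a log2 fold change of 0.19 (SE 0.119, unadjusted p = 0.118, adjusted p = 0.781, edgeR), and 0.11 without the 6 libraries that stood apart.

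Gys1 (chromosome 7, 45434844 to 45456619, plus strand) had 13.5, 17.6 and 27.1 CPM in WT and 15.2, 18.8 and 31.6 CPM in KO. WT 17 and KO 12, both rich in choroid plexus markers, were the highest library of their genotype. Its log2 fold change of 0.18 (SE 0.113, unadjusted p = 0.124, adjusted p = 0.781, edgeR) was 0.09 without the 6 libraries that stood apart. It was 0.14 with the choroid plexus score as a covariate (unadjusted p = 0.0459, adjusted p = 0.7, edgeR) and 0.26 without WT 17 (unadjusted p = 0.0192, adjusted p = 0.631, edgeR). When each library was left out in turn it ran from 0.09 to 0.26. Gbe1 reached 16.7 CPM in WT 17 and 16.4 CPM in KO 12 against a median of 7.80 CPM in WT and 7.95 CPM in KO. G6pdx, the first enzyme of the pentose phosphate pathway, had 20.3, 24.5 and 30.2 CPM in WT and 20.6, 24.8 and 40.6 CPM in KO, KO 8 being the highest, and a log2 fold change of 0.09 (SE 0.0876), or 0.0085 without KO 8. Exons of some genes overlap those of a neighbouring gene, and whether the counting used strand is not given in the sources used here. A neighbour on the opposite strand held 174% as many counts as the gene itself for G6pdx (Ikbkg), 123% for Gys1 (Ruvbl2) and 14.1% for Pfkp (Pitrm1). For Pfkfb2 the share was 65.9%, over Yod1 on the opposite strand and Gm29427 on the same strand together. Those 4 rows are uncertain.

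With merged exon lengths and all 23 libraries, no isoform share differed between the genotype means by more than 4.29 percentage points. Pfkm held 64.3% ± 1.74 of phosphofructokinase RPKM in WT (SD, n = 12) and 66.3% ± 3.17 in KO (SD, n = 11). Ldhb held 75.6% ± 2.25 of lactate dehydrogenase RPKM in WT and 77.0% ± 1.96 in KO. Slc16a1 held 87.4% ± 1.70 of the 3 monocarboxylate transporters in WT and 88.5% ± 2.08 in KO. Pdk2 held 56.97% ± 4.09 of the 4 pyruvate dehydrogenase kinases in WT and 57.6% ± 2.17 in KO. The 4.29 points were those of Eno1, from 39.1% ± 5.73 in WT to 34.9% ± 9.13 in KO, a gene whose row is uncertain because of its copies. Without the 6 libraries that stood apart the difference, KO minus WT, was -7.49 points for Eno1 and 7.45 points for Eno2. Those 6 include WT 14, the only WT library in the highest step of Eno1b. With principal transcript lengths it was -4.84 points for Eno1 and -4.59 points for Slc16a7. Pfkfb3 moved by 3.25 points, from 43.1% ± 3.24 in WT to 39.9% ± 2.46 in KO. These differences in share were not tested.

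**Figure D4:**
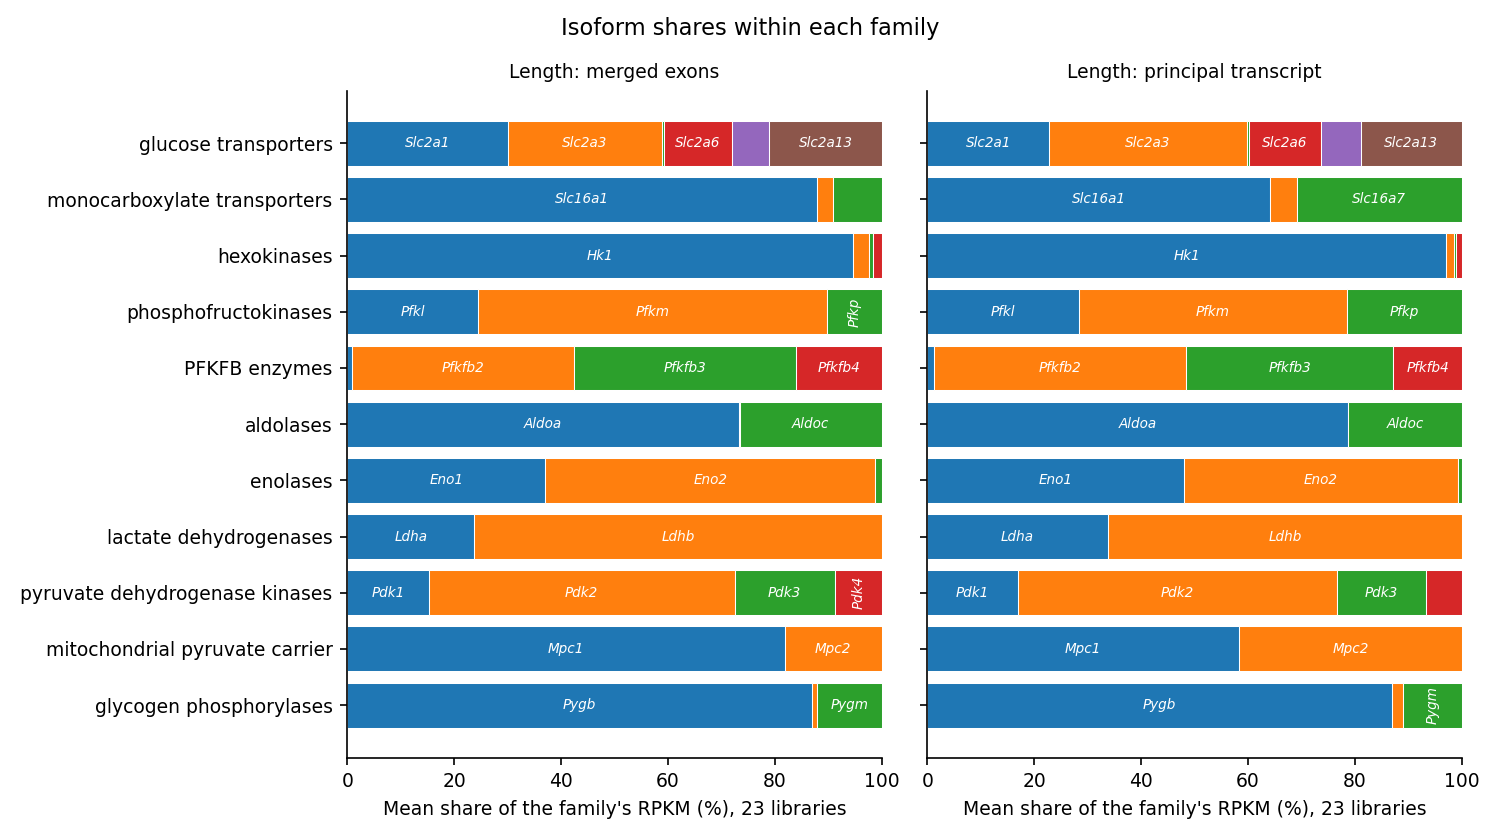
Mean share of each isoform in the summed RPKM of the genes drawn for its family (x axis, percent; one bar per family on the y axis) over 23 libraries, with merged exon length on the left and principal transcript length on the right; segments follow gene order and narrow ones carry no name. The leading isoform was the same with both lengths in all families but the glucose transporters and the PFKFB enzymes, though with principal lengths Eno2 was above Eno1 in 12 of 23 libraries only, and Mpc1 held 81.9% with the first length and 58.3% with the second. The enolase bars leave out the near-identical copies of Eno1.

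KO 8 gave the lowest value of the 23 libraries for 17 of the 40 genes (42.5%) and the highest for 4 (10%). The same library was lowest for 23.7% of all tested genes and highest for 22.1%, and lowest for 45.1% of the tested genes at or above the set's median CPM. Among its low genes, Pfkl was at 122 CPM against 220 to 299 CPM in the 17 libraries that did not stand apart, and Slc2a6 at 15.1 against 21.4 to 34.0 CPM. Among its high genes, G6pdx was at 40.6 against 20.3 to 30.2 CPM. In bulk tissue fewer cells of a type and less RNA per cell cannot be told apart. Without KO 8 the median log2 fold change of the 40 genes was 0.05, and 0 genes were called.

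The 5 libraries rich in choroid plexus markers also had more of a few of these genes. Relative to the 17 libraries that did not stand apart, their mean log2 CPM was higher by 1.17 for Slc2a4, 0.67 for Gbe1, 0.51 for Gys1, and 0.47 for both Slc2a1 and Pygm. Other genes were lower in them, with differences of -0.32 for Slc16a7, -0.245 for Slc2a13 and -0.21 for Pfkfb3. For Slc2a4 the ranges overlapped, at 0.794 to 3.80 CPM against 0.201 to 1.415 CPM. For Gbe1 the ranges did not meet, at 10.2 to 16.7 CPM against 6.28 to 9.51 CPM. The share of all tested genes with separate ranges in this split was not counted. Summed endothelium markers were likewise at 209 to 261 CPM in these 5 libraries and 104 to 204 CPM in the 17. Correlations of the genes with endothelium markers are given below. The part of either cell type in the higher levels of these 5 libraries was not tested.

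**Figure D5:**
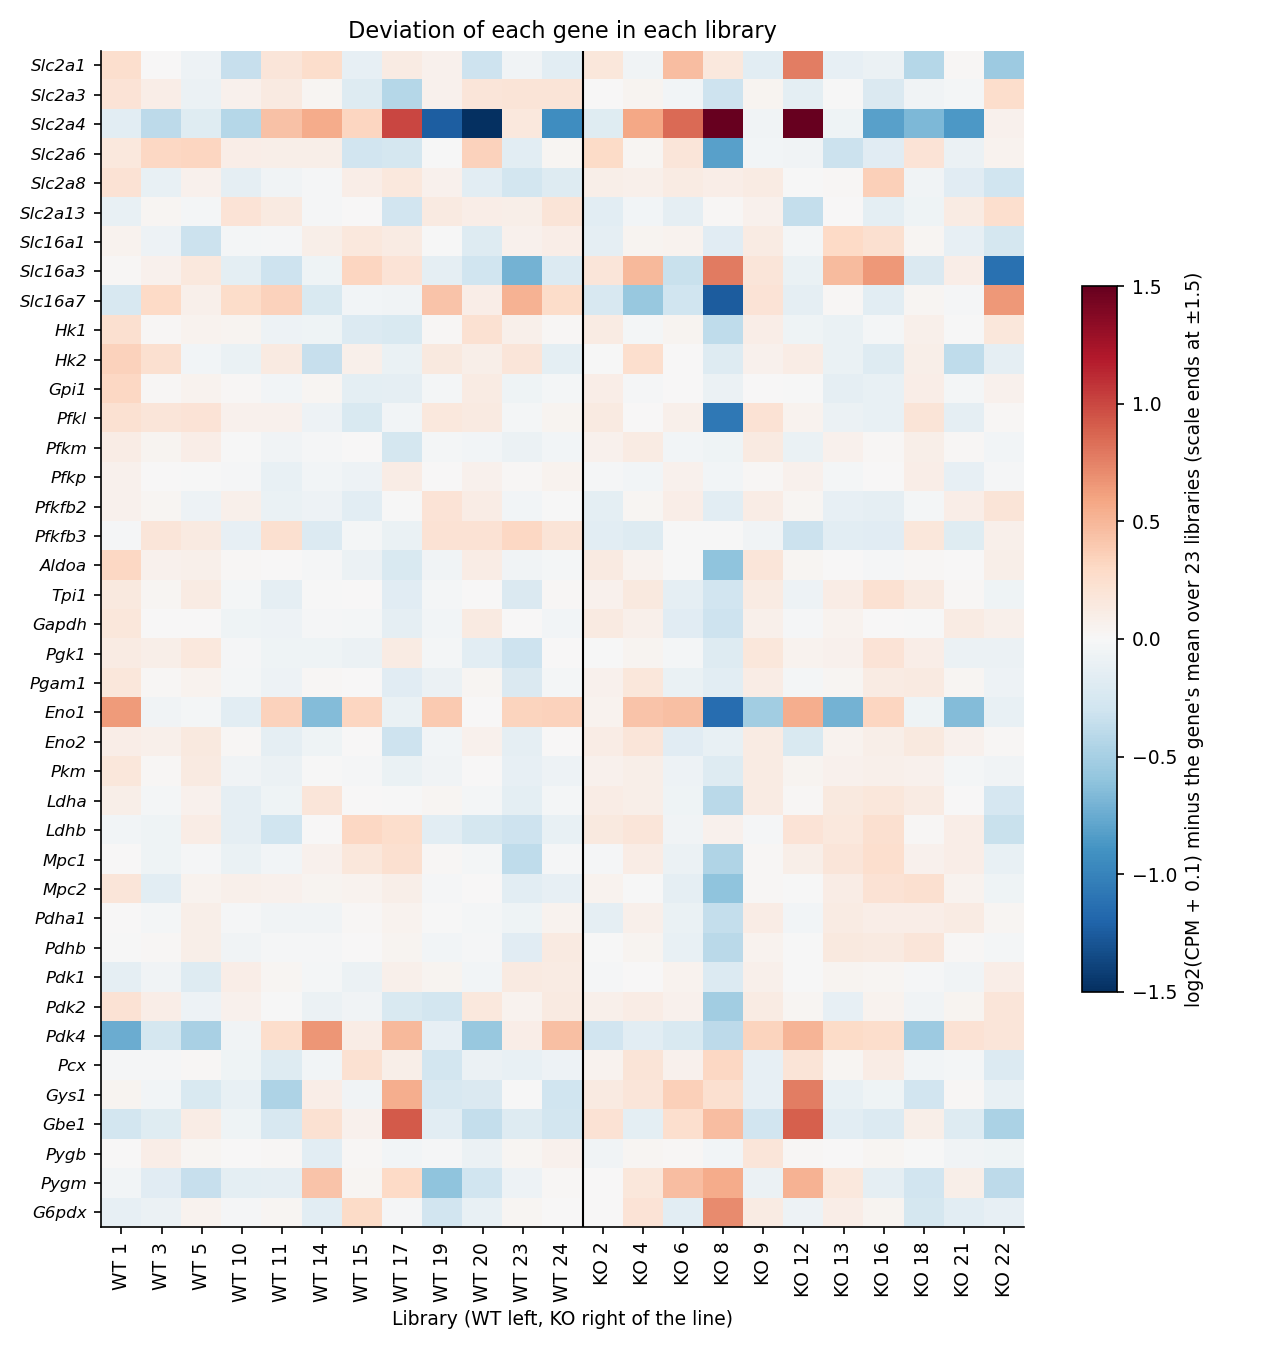
Deviation of each of the 40 genes (y axis) from its mean over 23 libraries (x axis, WT left and KO right of the line), as log2(CPM + 0.1); red is above and blue below the mean, and colours end at 1.5 in either direction. KO 8 is the darkest blue column for Pfkl and Slc16a7, WT 17 and KO 12 stand out in red for Gbe1, and Eno1 varies in both genotypes.

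Across the 17 libraries that did not stand apart (10 WT and 7 KO), each gene was set against the mean log2 CPM of neuron, astrocyte, oligodendrocyte and endothelium markers, 160 pairs in all. The pairs share the library and its scaling, so they describe co-variation only. Of the pairs, 14 passed an adjusted p below 0.05 (two-sided permutation test, 100000 resamples, Benjamini-Hochberg over the 160 pairs), 8 positive and 6 negative, and their absolute r was at least 0.664. The smallest was that of Pdk4 with neuron markers (r = -0.664), so this mark was set by the 40 genes themselves. For neuron markers 4 of the 40 genes (10%), 3 positive and 1 negative, reached an absolute r of 0.664, against 2.89% of all tested genes. For astrocyte markers it was 10% against 13%, for oligodendrocyte markers 15.0% against 16.1%, and for endothelium markers 0 genes against 0.531%. These shares were not counted among tested genes of like CPM. With endothelium markers Slc2a1 had the largest r, 0.61 (permutation p = 0.0095, adjusted p = 0.088), and 0.805 over all 23 libraries (permutation test, adjusted p = 0.00053). For Slc2a4, Gbe1, Gys1 and Pygm it lay from -0.153 to 0.015 over the 17 and from 0.51 to 0.599 over all 23.

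Hk1 was higher where neuron markers were higher and astrocyte and oligodendrocyte markers lower. With astrocyte markers Pearson's r was -0.828 (permutation p = 4e-05, adjusted p = 0.0064; Spearman's rho = -0.841, permutation p = 6e-05; r = -0.781 without the 2 farthest libraries), with r = -0.939 within WT and -0.836 within KO. With neuron markers r was 0.751 (permutation p = 0.00048, adjusted p = 0.013; rho = 0.679, permutation p = 0.0037; r = 0.718 without the 2 farthest). Correlations as large in size were found for 1.38% and 0.758% of all tested genes. Over all 23 libraries the first was -0.482 (permutation p = 0.02, adjusted p = 0.074) and the second 0.765. With oligodendrocyte markers the r of Hk1 was -0.711 over the 17 libraries (permutation p = 0.0014, adjusted p = 0.026) and -0.41 over all 23 (adjusted p = 0.17). Gpi1 had r = 0.713 with neuron and -0.711 with astrocyte markers over the 17 (permutation test, adjusted p = 0.013 and 0.024). Over all 23 these were 0.371 and -0.605 (adjusted p = 0.19 and 0.026). Correlations as large over the 17 were found for 11.3%, 1.43% and 8.7% of all tested genes, in the order given.

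Slc16a3 and Ldhb varied with glial markers. For Slc16a3, r was 0.784 with astrocyte markers (permutation p = 0.00024, adjusted p = 0.013; rho = 0.794, permutation p = 0.00041; r = 0.652 without the 2 farthest libraries), with 0.451 within WT and 0.944 within KO. With oligodendrocyte markers it was 0.773 (permutation p = 0.00036, adjusted p = 0.013; rho = 0.743, permutation p = 0.00087; r = 0.657 without the 2 farthest). Ldhb had r = 0.742 with oligodendrocyte markers (permutation p = 0.00057, adjusted p = 0.013; rho = 0.75, permutation p = 0.0008; r = 0.637 without the 2 farthest). Pfkfb2 ran the other way, with r = -0.784 against oligodendrocyte markers (permutation p = 0.00029, adjusted p = 0.013; rho = -0.784, permutation p = 0.00045; r = -0.731 without the 2 farthest). Over all 23 libraries that r was -0.507 (permutation p = 0.013, adjusted p = 0.064), and the row of Pfkfb2 is one of those with overlapping neighbours. Among all tested genes 3.06%, 5.92%, 8.43% and 5.04% had correlations as large as these, in the order given.

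The wider pathway was examined through 82 further genes of transport, glycolysis, glycogen, pentose phosphate, gluconeogenesis and their regulators, of which 69 passed the filter. None of the 69 was called by edgeR, and 5 of the 69 had an unadjusted p below 0.05, where 5.74% of all tested genes did. All 5 were higher in KO, a direction in which 3.41% of all tested genes passed that mark. KO 8 was the highest library for 27 of the 69 (39.1%), against 22.1% of all tested genes. Ldhd and G6pc3 were among the 27, while Pck2, Stbd1 and Ppargc1a were highest in WT 1, KO 21 and KO 22. Ldhd, a mitochondrial D-lactate dehydrogenase, had lowest, median and highest levels of 8.46, 10.9 and 14.3 CPM in WT and 10.8, 13.3 and 20.9 CPM in KO, and a log2 fold change of 0.28 (SE 0.109, unadjusted p = 0.0163, adjusted p = 0.781, edgeR). The genotypes overlapped, with KO 8 the highest library, and the fold change ran from 0.21 to 0.32 when each library was left out in turn. Pck2, the mitochondrial phosphoenolpyruvate carboxykinase, followed at 0.14 (SE 0.0558), G6pc3, a ubiquitous glucose 6-phosphatase, at 0.20 (SE 0.0857), Stbd1, a glycogen-binding protein, at 0.85 (SE 0.364) and Ppargc1a, a coactivator of mitochondrial genes, at 0.12 (SE 0.0566), with adjusted p = 0.781 for each in edgeR. Stbd1 was low, at 0.807, 1.66 and 4.99 CPM in WT and 1.40, 4.90 and 8.46 CPM in KO, with 5 KO libraries above every WT library. Over the leave-outs G6pc3 ran from 0.14 to 0.235, Stbd1 from 0.70 to 0.99, Pck2 from 0.13 to 0.18 and Ppargc1a from 0.09 to 0.15. Aldoc, the aldolase of astrocytes, supplied 26.6% of aldolase RPKM and had a log2 fold change of 0.10 (SE 0.0846). Bsg, the partner protein of Slc16a1, was at 0.12 (SE 0.168) and Txnip, a brake on glucose uptake, at -0.02 (SE 0.188), both of which changed sign in some alternatives.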

How the data were processed

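RNA of 23 hippocampus libraries was sequenced with a stranded kit, per the labels' protocols. Estimated counts per gene were deposited by the authors as 1 table. The submitters' processing notes name bcl2fastq, STAR and mm10. The counting program, its use of strand and the annotation are not given in the sources used here. Of a library's non-zero values 24.6% to 27.2% were fractional, so reads may have been divided among similar genes. All columns were matched to samples through the library names in the labels (0 left over).

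Rounded counts went into edgeR 4.0.16 (R 4.3.3): filterByExpr, TMM, quasi-likelihood F test with robust estimation over 15828 genes in 23 libraries, Benjamini-Hochberg adjustment, calls below 0.05. The labels name no batch. CPM and RPKM use TMM-scaled totals. Lengths, positions and sequences come from GENCODE M21 (GRCm38). Similar transcripts (at least 95% identity over at least 200 bp) were found with blastn 2.17.0. Correlations used permutation tests in scipy 1.17.1 and numpy 2.4.6. The fit was checked on simulated counts. A count of 0 allows up to 3 counts, and such limits cover counting error only.

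Other settings tried were DESeq2 1.42.0, RLE size factors, limma 3.58.1 voom with quality weights, no robust estimation, other filters, 1 surrogate variable (sva 3.50.0), a choroid plexus covariate, a threshold of 0.10, leaving out libraries, and other lengths. Summing copies and the principal transcript length were added after the data were seen. The 40 genes, the further pathway genes and the marker lists were chosen with earlier results of these data known. By rule, all 40 genes are described, the 6 with the smallest p in full, with the further pathway genes at an unadjusted p below 0.05, Bsg, Aldoc and Txnip, and the 6 strongest correlations past the threshold. Any other gene was picked with its values in view.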

Additional observations from a re-analysis of the deposited data

How the results depend on the processing

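No genotype call among the 40 genes or the 69 further pathway genes appeared in any alternative, or when any 1 library was left out (0 to 0 calls in each list), and 0 genes of the 40 had an adjusted p below 0.10. Over all genes 2 were called, with 2 to 3 when 1 library was left out, 4 under DESeq2, 5 under voom, 1 with a filter on a mean of 50 counts and 1 without the 5 libraries rich in choroid plexus markers. The count of the 40 genes at an unadjusted p below 0.05 was 1, and 1 to 5 when 1 library was left out. It was 3 without WT 15 (7.5%, beside 8.07% of all tested genes) and 3 without WT 17 (7.5%, beside 7.60%). Without WT 14 it was 2 (5%, beside 5.9%). Without KO 22 it was 5 (12.5%, beside 11.4% of all tested genes) and under voom 9 (22.5%, beside 17.4%). It was 2 with the choroid plexus covariate (5%, beside 6.82%), 2 without those 5 libraries (5%, beside 9.14%) and 4 without them and KO 8 (10%, beside 8.05%). The median log2 fold change of the set ran from 0.003 to 0.048 over the leave-outs. Of the 40 genes, 29 kept their sign in every alternative that changes the fit or the libraries and tested them (11 a gene, and 10 for Slc2a4 and Slc16a3, which the filter on a mean of 50 counts left out); the 11 genes that did not had fold changes of at most 0.083 in size. When single libraries were left out 23 of the 40 kept their sign each time, and the others had fold changes of the same limit, 0.083 or less. Slc2a1 (0.06) reversed to -0.0054 under voom, -0.0067 with the choroid plexus covariate, -0.059 with 1 surrogate variable, -0.099 without the 5 libraries and -0.14 without them and KO 8, and ran from -0.033 (without KO 12) to 0.11 over the leave-outs. Bsg (0.12) reversed to -0.0074 with 1 surrogate variable and ran from -0.025 (without KO 12) to 0.28 over the leave-outs. Txnip (-0.02) reversed to 0.050 under voom and 0.0062 without KO 8 and ran from -0.14 to 0.088 (without WT 17) over the leave-outs. For these results the cause was not tested.

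Shares of the leading isoform changed with the length used. With the longest transcript Hk1 held 96.6%, Pfkm 56.0%, Aldoa 81.5%, Eno2 51.3%, Ldhb 67.9% and Mpc1 84.2%. With the principal transcript Slc2a3 led the glucose transporters at 37.0% and Slc2a1 held 22.8%. With that length Slc16a1 held 64.2%, Hk1 97.03%, Pfkm 50.2%, Aldoa 78.7%, Eno2 51.3%, Ldhb 66.2% and Mpc1 58.3%. The lengths alone differ between these settings. The marker correlations past the threshold numbered 14, 28 over all 23 libraries (5 of the 14 among them) and 15 with genotype means removed (all 14 among them). No paired analysis was possible because no replicate number occurs in both genotypes. Depth limits Slc2a4 and Slc16a3 most, whose libraries held as few as 3 and 10 counts.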

Other observations

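Outside the 40 genes, several transporters were higher in the 5 libraries rich in choroid plexus markers than in the 17 that did not stand apart. They were chosen after their values were seen. Slc2a12, a glucose transporter, was at 12.2 to 92.5 CPM against 3.02 to 6.33 CPM. Slc16a8, the monocarboxylate transporter of choroid plexus and retinal pigment epithelium, was at 3.36 to 21.98 CPM against 0 to 0.604 CPM. Emb and Bsg, the partner proteins of monocarboxylate transporters, were at 36.0 to 119 CPM against 14.8 to 24.1 CPM and at 345 to 672 CPM against 251 to 301 CPM.

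WT 1 was the highest library for 9 of the 40 genes (22.5%) and for 3.87% of all tested genes. Its share among the tested genes at or above the set's median CPM was not counted. KO 22 was the lowest library for 5 of the 40 (12.5%) and for 9.40% of all tested genes, and had the lowest summed oligodendrocyte markers, 3498 CPM against up to 8580 CPM in KO 16.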
